A study of Drosophila melanogaster with 6 samples.

Results

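The genes described here encode structural proteins of the insect cuticle. They were taken by symbol from the platform annotation: every gene whose symbol starts with Cpr, Lcp, Acp65, Ccp84 or Edg, and Pcp. A gene was read by its brightest probe set that names no other gene, which gave 81 genes of 11982 measured. Of these, 66 carried the prefix Cpr, 7 Lcp, 3 Ccp84, 3 Edg and 1 each Acp65 and Pcp, and 79 of the 81 had a single such probe set. No member was left out for a low value. Lcp1, Lcp2, Lcp3, Lcp4, Lcp65Ab1, Lcp65Ab2, Cpr65Ay, Ccp84Ad and Ccp84Af had no paired probe set and were not analysed here. The gene for the cytochrome P450 reductase, whose symbol is Cpr, had none either.

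The study hybridised larval RNA of Drosophila melanogaster, at instar 1, to 6 Affymetrix arrays. Whole animals of mixed sex were pooled, 200 for each array, and 3 arrays came from wild type and 3 from animals labelled as Pof mutant. Pof encodes a protein known for binding genes of the smallest autosome. The series title names the allele D119. The labels give no strain or parental genotype for either group, no age within the instar, and no batch. The values are log2 expression values made by the authors with RMA, so a difference of 1 is a 2-fold difference in signal.

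The larval cuticle is a layered sheet of chitin fibres and proteins that the epidermis secretes before hatching and again before each moult. Most of the proteins named Cpr, Lcp, Ccp84A and Acp65A carry the Rebers and Riddiford domain, which binds chitin, and they fall into families that differ in the region of cuticle in which they are laid down. Their genes are known for brief expression around the time a new cuticle is made, under control of the moulting hormone ecdysone, and many lie side by side in tandem groups that carry the name of their polytene chromosome band, such as 65A or 84A.

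The arrays were not equally alike. Over the 81 genes, wild type replicates 2 and 3 correlated with r = 0.998 and no gene differed by over 2-fold, while wild type replicate 1 correlated with the other 5 arrays at r = 0.754 to 0.798. Pairs made of any 2 of those other 5 arrays gave r = 0.982 to 0.998. Results that rest on wild type replicate 1 are therefore given with and without it. The Pof signal was 3.06-fold higher on the arrays labelled as mutant (log2 difference 1.61, SE 0.07, limma adjusted p = 9.47e-05), so the label does not mark a lower Pof transcript at this probe set, and the arrays are called mutant-labelled below. As a measure of RNA integrity, the mean difference between 3' and 5' probe sets of 3 control genes was 1.37 on wild type replicate 1, inside the 1.20 to 1.48 of all arrays except mutant-labelled replicate 2, where it was 2.03.

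Many of the cuticle protein genes stood far higher on wild type replicate 1 than on the other wild type arrays. The median of the 81 genes was 8.31 on that array, 6.73 and 6.70 on wild type replicates 2 and 3, and 6.87, 6.78 and 6.76 on the mutant-labelled arrays. Over all genes, each by its brightest probe set, the array medians lay between 7.42 and 7.46. Against the mean of wild type replicates 2 and 3, 37 of the 81 genes (45.7%) were over 2-fold higher on wild type replicate 1, against 2.52% of all genes. None was over 2-fold lower, where 0.108% of all genes were. The count over 4-fold was 24 (29.6%, against 1.32% of all genes), and over 16-fold it was 7 (8.64%, against 0.351%). The cuticle protein genes made up 12.3% of all 302 genes that were over 2-fold higher on this array. For 31 of the 81 genes the value lay over 2-fold above the highest of the other 5 arrays, as it did for 2.18% of all genes. Wild type replicate 1 held the highest value of the 6 arrays for 56 of the 81 genes, and for 13.6% of all genes. This is a single array set against others, so these shares are descriptions without a test.

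**Figure D1:**
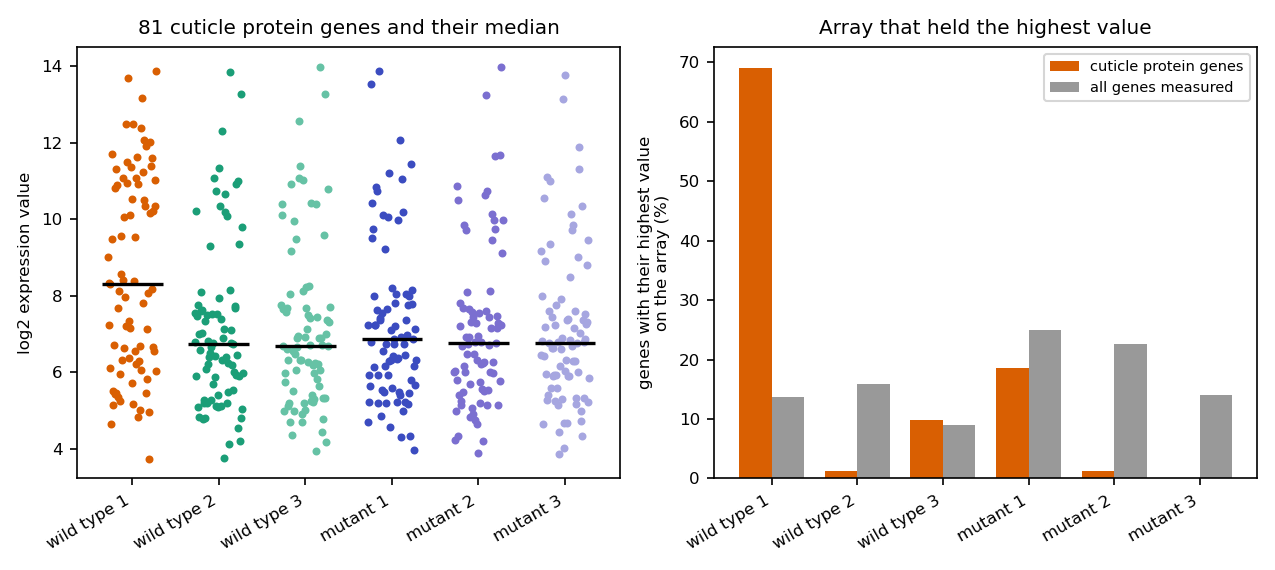
Left, log2 expression values of the 81 cuticle protein genes on each array (1 point per gene, spread sideways at random, line at the median); right, percent of genes whose highest value of the 6 lies on each array, for the 81 genes and for all 11982. The median is 8.31 on wild type replicate 1 and 6.70 to 6.87 on the others, and wild type replicate 1 holds the highest value for 56 of the 81 genes.

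Among the 81 genes the difference was largest for Lcp65Af, a larval cuticle protein gene of the 65A group. Its values were 12.49, 5.19 and 5.21 on wild type replicates 1 to 3, and 5.58, 6.02 and 6.62 on the mutant-labelled arrays. The first array alone was high, by 7.29 over wild type replicates 2 and 3 (157-fold). Those low values lay near the lower quartile of all probe sets (5.11 to 5.24), where RMA values are compressed, so the size of the fold is uncertain. Cpr51A, a chitin-binding family gene of band 51A, gave 12.39, 6.89 and 6.70 in wild type and 6.75, 6.92 and 7.38 in mutant-labelled larvae, which puts the first array 48.4-fold over wild type replicates 2 and 3. Cpr64Ad gave 13.18, 8.11 and 8.25 in wild type, and 8.15, 7.81 and 8.48 on the mutant-labelled arrays. Again wild type replicate 1 was 32-fold above the other wild type arrays, and the remaining 5 arrays lay within 0.67 of each other. Lcp65Ad was at 11.39 against 6.40 and 6.32 (32.6-fold), Cpr66D at 10.06 against 5.10 and 5.22 (29.9-fold), Cpr67Fb at 10.89 against 6.22 and 6.32 (24.6-fold) and Cpr23B at 10.22 against 5.90 and 5.99 (19.4-fold). For all 7 of these genes every mutant-labelled array lay closer to wild type replicates 2 and 3 than to wild type replicate 1. Cpr66D, like Lcp65Af, lay near the lower quartile on wild type replicates 2 and 3, so the size of its fold is uncertain.

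A further 8 genes were 10.2-fold to 15.1-fold higher on wild type replicate 1. They were Cpr30F, Ccp84Ac, Cpr47Ec, Cpr35B, Cpr64Ab, Cpr60D, Cpr56F and Cpr5C. On wild type replicates 2 and 3, Cpr60D (4.80 and 4.90) and Cpr35B (5.09 and 5.01) lay below the lower quartile of the probe sets. The size of their folds is therefore uncertain. Cpr64Ab shows how tightly the other arrays agreed for some of the 8 genes. It gave 10.50 on wild type replicate 1 against 7.01 and 7.01 on the other wild type arrays. On the mutant-labelled arrays it was at 7.13, 7.16 and 7.16. The next, down to 4.24-fold, were Cpr62Bc, Ccp84Ae, Cpr65Ea, Cpr49Ac, Cpr65Av, Cpr50Cb, Ccp84Ag, Cpr65Ec and Cpr49Ae. Those over 2-fold and under 4-fold were Cpr49Ag, Cpr78Cb, Cpr76Ba, Cpr67Fa1, Cpr78Cc, Lcp65Ac, Cpr65Eb, Cpr97Ea, Cpr47Ed, Cpr31A, Cpr62Bb, Edg91 and Cpr92F. The threshold of 2-fold fell at the upper edge of a gap. Cpr31A, Cpr62Bb, Edg91 and Cpr92F lay barely above the threshold at 1.03, 1.02, 1.01 and 1.00. Below it the nearest were Cpr66Cb and Cpr100A at 0.68 and 0.66.

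The other 44 genes differed by -0.50 to 0.68 between wild type replicate 1 and the other wild type arrays. Lcp65Ag3, a larval cuticle protein gene of the 65A group, gave 13.87, 13.85 and 13.99 in wild type and 13.87, 13.99 and 13.77 on the mutant-labelled arrays. No array stood apart for it. Cpr47Eg (13.70, 13.27 and 13.29 in wild type, 13.55, 13.24 and 13.14 in mutant-labelled larvae) and Cpr11A (11.02, 10.92 and 11.08, then 11.07, 10.64 and 11.01) likewise stayed within a narrow band. Wild type replicate 1 gave the lowest of the 6 values for 4 of the 81 genes (28.2% of all genes): Cpr11B, Cpr97Eb, Acp65Aa and Cpr50Ca. Cpr11B gave 9.53 on it against 10.10 and 9.96 on the other wild type arrays, and 9.99, 9.98 and 9.72 on the mutant-labelled arrays. Genes that stood apart were found at every signal strength. Among genes whose mean on wild type replicates 2 and 3 was above the upper quartile of the probe sets 5 of 16 were over 2-fold higher on wild type replicate 1, between the median and that quartile 19 of 29, between the lower quartile and the median 8 of 24, and below the lower quartile 5 of 12. The shares of all genes in these 4 classes were 1.08%, 2.98%, 4.01% and 2.73%.

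**Figure D2:**
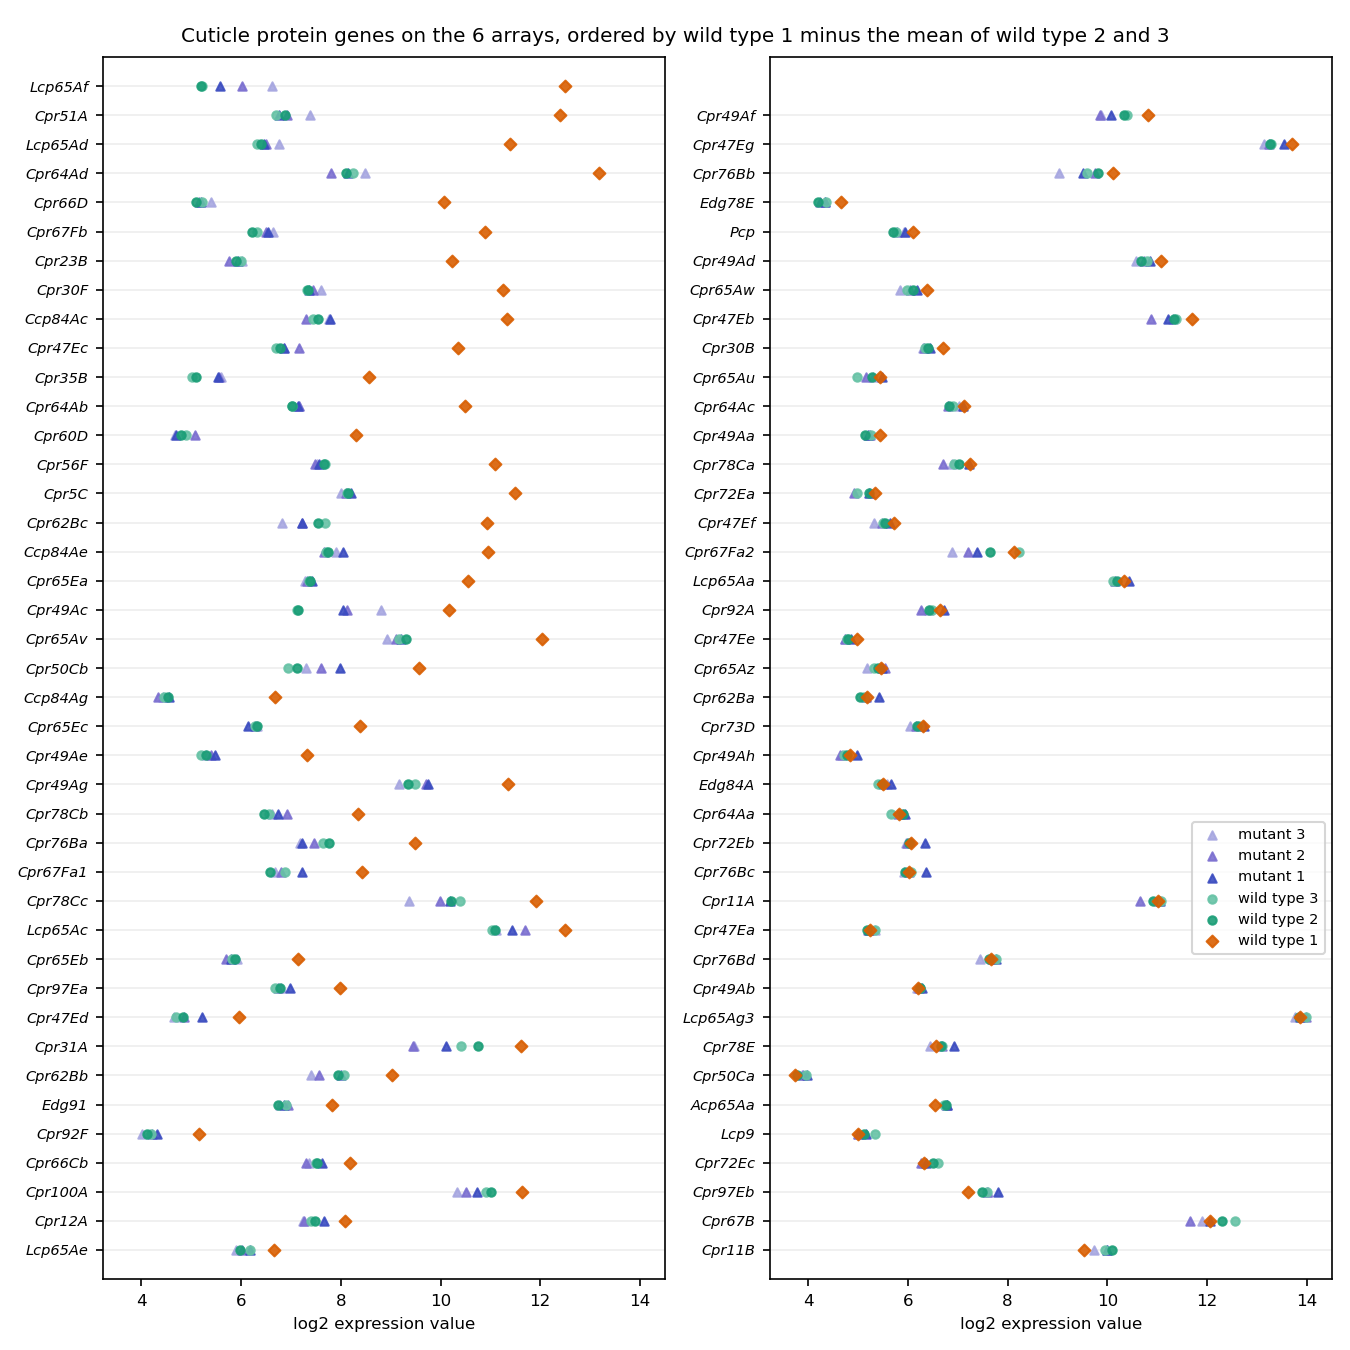
Log2 expression values of all 81 genes on the 6 arrays, 1 row per gene, ordered by wild type replicate 1 minus the mean of wild type replicates 2 and 3 (diamonds, wild type replicate 1; circles, the other wild type arrays; triangles, mutant-labelled arrays). The diamond lies clear of the other points for most of the left panel, from Lcp65Af (7.29) downward, and among them for most of the right panel.

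Neighbouring genes often differed in this respect. The order of protein-coding genes in the reference annotation put 33 pairs of the 81 genes directly next to each other. In 19 of these pairs 1 gene was over 2-fold higher on wild type replicate 1 and its neighbour was not, in 5 pairs both were, and in 9 neither was. Since 37 of the 81 genes (45.7%) passed 2-fold, many mixed pairs would arise whatever the order of the genes. A link to position was not tested. The 64A group alternated: Cpr64Aa differed by 0.03, Cpr64Ab by 3.49, Cpr64Ac by 0.26 and Cpr64Ad by 5.0. The same held along 49A, where Cpr49Ac, Cpr49Ae and Cpr49Ag differed by 3.04, 2.08 and 1.94, while Cpr49Ad and Cpr49Af, which lie among them, differed by 0.36 and 0.45. In the 65A group 4 of 11 measured genes passed 2-fold, with Lcp65Af (7.29) beside Lcp65Ae (0.57) and Lcp65Ad (5.03) beside Cpr65Aw (0.35). In some small groups all genes lay on 1 side of 2-fold. All 3 genes of 65E passed 2-fold (1.31 to 3.17), whereas none of the 3 genes of 72E did (-0.23 to 0.25). The 3 measured Ccp84A genes also passed it, but Edg84A, directly next to Ccp84Ag, did not (0.06). Genes over 2-fold higher were found on every arm that held members: 4 of 6 on 2L, 9 of 21 on 2R, 17 of 40 on 3L, 6 of 10 on 3R and 1 of 4 on X.

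**Figure D3:**
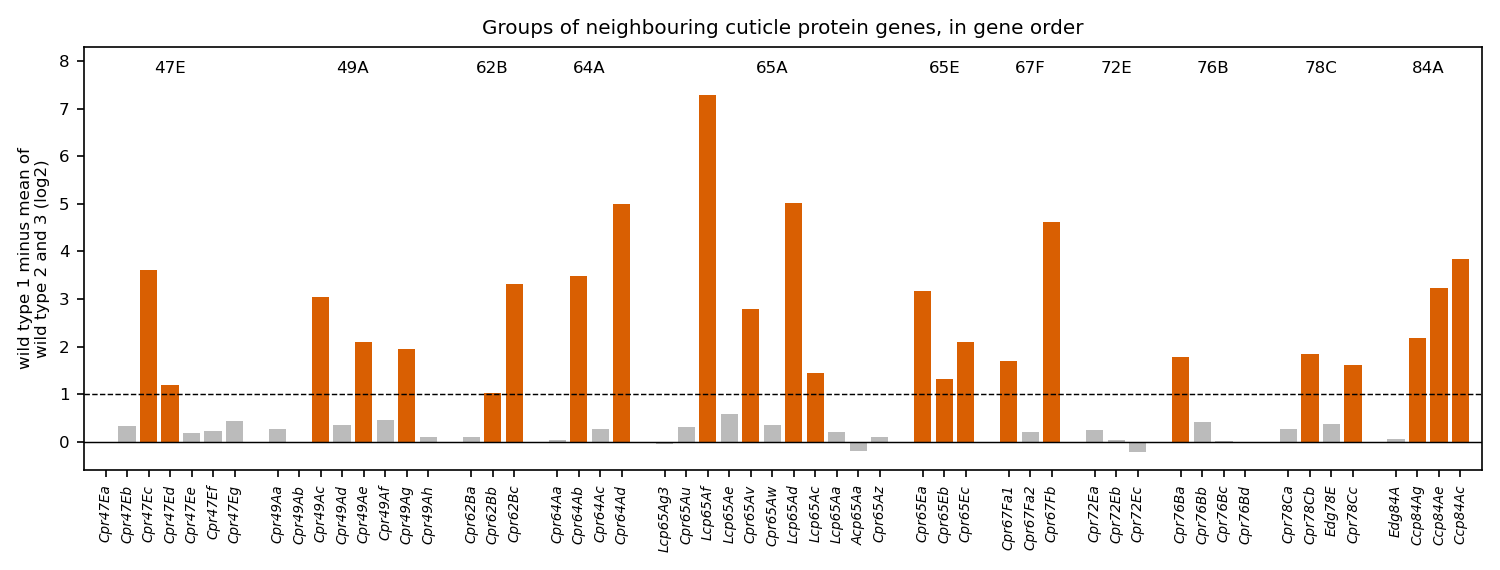
Wild type replicate 1 minus the mean of wild type replicates 2 and 3 (log2, bars) for the groups of neighbouring genes, in gene order within each band; the dashed line marks 2-fold, and bars above it are coloured. Tall and short bars stand side by side in 49A, 64A and 65A, while all 3 genes of 65E pass the line and none of 72E does.

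The genes named for later stages were compared with those named for the larva. Edg78E, Edg84A and Edg91 are ecdysone-dependent genes known from the prepupal epidermis, Pcp encodes a pupal cuticle protein and Acp65Aa an adult one. Edg84A gave 5.50, 5.48 and 5.40 in wild type and 5.66, 5.50 and 5.59 in mutant-labelled larvae, and Pcp 6.11, 5.71 and 5.76, then 5.94, 5.78 and 5.92. Edg78E lay between 4.20 and 4.65 on all arrays, and Acp65Aa between 6.55 and 6.79. For Edg84A, Pcp and Edg78E every value was below the median over all probe sets of each array (6.46 to 6.56). None of these 4 genes was 2-fold higher on wild type replicate 1. Edg91, which encodes a glycine-rich cuticle protein, gave 7.82 there against 6.73 and 6.90. Among the larval genes Lcp65Ac was at 12.51 on wild type replicate 1 and at 11.04 to 11.69 on the other 5 arrays. Lcp65Aa lay between 10.11 and 10.44 on all 6, Lcp65Ae between 5.90 and 6.66, and Lcp9 between 4.99 and 5.34. The Ccp84A genes, chitin-binding family members that lie within the Antennapedia complex, were higher on wild type replicate 1 by 3.83 (Ccp84Ac), 3.23 (Ccp84Ae) and 2.19 (Ccp84Ag).

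Between the groups no cuticle protein gene passed limma at an adjusted p of 0.05 (0 of 81 in either direction, against 4.09% of all genes, 2.65% higher and 1.44% lower). Before adjustment, at p under 0.05, limma gave 7 of 81 lower and 0 higher on the mutant-labelled arrays, where 6.31% and 10.5% of all genes were. With 1.5-fold added to the adjusted threshold the count was 0 (2.55% of all genes), and at an adjusted p of 0.10 it was 2, both lower (6.03% of all genes). The median difference of the 81 genes was -0.27, against 0.02 over all genes, and 64 of 81 had a lower mean in mutant-labelled larvae, as did 43.3% of all genes. Every mutant-labelled array lay below every wild type array for 10 of the 81 genes (7.95% of all genes did so) and above for 1, Acp65Aa (14.5% of all genes). The SE of the difference was 0.26 to 1.83 for the 37 genes over 2-fold higher on that array and 0.07 to 0.20 for the other 44. For Lcp65Af the difference was -1.56 with a 95% interval of -5.86 to 2.74. For Lcp65Ag3 it was -0.03 with an interval of -0.23 to 0.17.

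The genes closest to a call were lower on the mutant-labelled arrays. Cpr67Fa2 gave 8.13, 7.64 and 8.22 in wild type and 7.38, 7.21 and 6.87 in mutant-labelled larvae (means 8.0 ± 0.31 and 7.15 ± 0.26, SD, n = 3). The groups did not overlap, and the difference of -0.84 (SE 0.18) had a limma adjusted p = 0.0644. A probe set that names both Cpr67Fa2 and its close copy Cpr67Fa1 gave -1.32 (adjusted p = 0.418), and the copies may share signal. Cpr49Af gave 10.82, 10.34 and 10.39, then 10.07, 9.86 and 9.86 (difference -0.59, SE 0.14, limma adjusted p = 0.0813). Cpr31A gave 11.61, 10.74 and 10.42, then 10.11, 9.45 and 9.46 (difference -1.25, SE 0.32, limma adjusted p = 0.108). In both genes the groups were apart, with wild type replicate 1 the highest array. Cpr100A followed with -0.66 (adjusted p = 0.173) and Cpr67B with -0.44 (adjusted p = 0.238). Cpr67B differed from the others in its order: wild type replicate 1 at 12.07 was the lowest wild type array, below 12.31 and 12.56, and the mutant-labelled arrays were at 12.06, 11.66 and 11.89. Leaving out wild type replicate 2 brought Cpr67Fa2 under the threshold at -1.02 (adjusted p = 0.0443), and it was the only one of the 81 genes called in that fit, which called 1.68% of all genes.

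Without wild type replicate 1 the median difference of the 81 genes was 0.02, equal to that of all genes at 2 decimals, and 42 genes had a higher and 39 a lower mean on the mutant-labelled arrays. Limma then called 2 of the 81 genes higher and 0 lower, where it called 2.60% and 1.88% of all genes. The 2 were Cpr35B and Cpr49Ac. Cpr49Ac gave 7.14 and 7.12 on wild type replicates 2 and 3 and 8.05, 8.12 and 8.80 on the mutant-labelled arrays, a difference of 1.19 (SE 0.21, adjusted p = 0.0224). Cpr35B gave 5.09 and 5.01, then 5.54, 5.57 and 5.60, a difference of 0.52 (SE 0.08, adjusted p = 0.0155), at values close to the lower quartile of the probe sets. Both genes were higher still on wild type replicate 1, at 10.17 and 8.57, and with it their differences were 0.18 (adjusted p = 0.962) and -0.66 (adjusted p = 0.846). The direction of Cpr35B thus turned with this 1 array. Before adjustment, at p under 0.05, this fit gave 6 higher and 8 lower (9.14% and 8.08% of all genes).

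The genes described above as closest to a call, and 2 more, stayed lower on the mutant-labelled arrays without wild type replicate 1, and none was called. Cpr49Af differed by -0.44 (adjusted p = 0.0587), Cpr31A by -0.90 (0.0645), Cpr67B by -0.56 (0.0792), Cpr67Fa2 by -0.78 (0.0901), Cpr76Ba by -0.42 (0.0957), Cpr62Bc by -0.51 (0.111) and Cpr100A by -0.44 (0.133), all by limma. Of the genes highest on wild type replicate 1, Lcp65Af gave 0.87 (adjusted p = 0.142), Cpr50Cb 0.60 (0.159) and Cpr67Fb 0.29 (0.165) by limma. Over the 81 genes, all mutant-labelled arrays lay above wild type replicates 2 and 3 for 15 and below them for 11, against 19.3% and 15.2% of all genes. Mutant-labelled replicate 2, the array with the larger 3' minus 5' difference, was the lowest of its group for Cpr31A, Cpr49Af, Cpr67B and Cpr67Fb and the highest for Cpr76Ba and Cpr62Bc. It was the middle one for Cpr67Fa2, Cpr100A, Lcp65Af, Cpr50Cb and both called genes. The part of RNA quality in these differences was not tested. Leaving it out together with wild type replicate 1 gave 3 calls among the 81 genes, where 5.94% of all genes were called: Cpr35B (0.52, adjusted p = 0.0160) and Cpr49Ac (1.29, adjusted p = 9.40e-03) higher and Cpr76Ba lower (-0.50, adjusted p = 0.0198).

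**Figure D4:**
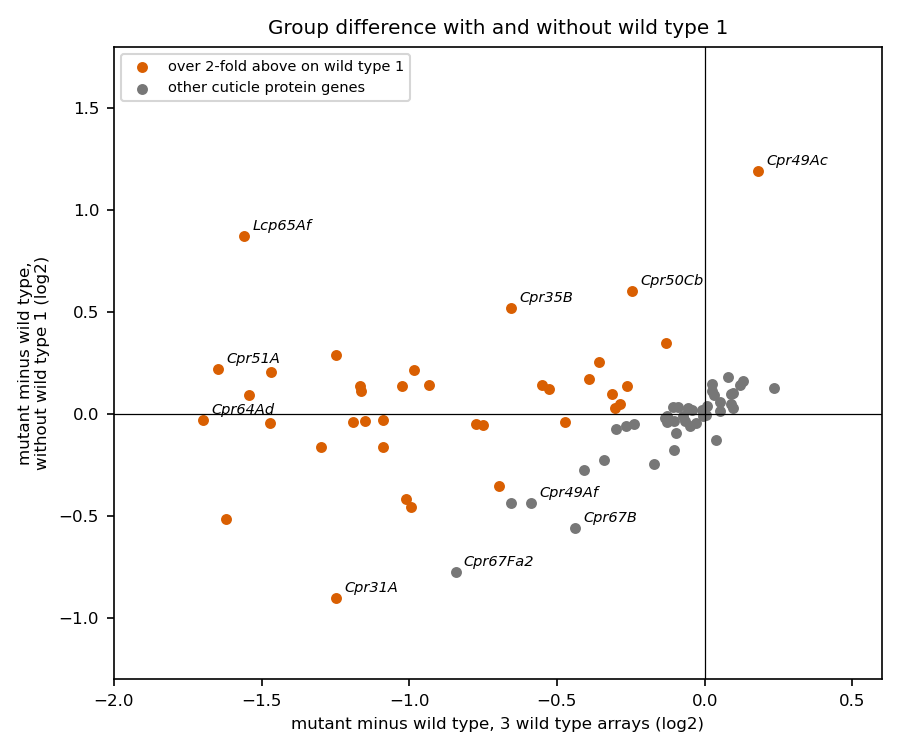
Difference between mutant-labelled and wild type arrays (log2) for the 81 genes, with all wild type arrays (horizontal) and without wild type replicate 1 (vertical); coloured points are the 37 genes over 2-fold higher on wild type replicate 1. The coloured points lie left of 0 except Cpr49Ac, and on both sides of 0 on the vertical axis, while the grey points have similar values on both axes.

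Among the mutant-labelled arrays the cuticle protein genes varied much less. No gene lay over 2-fold from the mean of the other mutant-labelled arrays on any of them, where 0.0167% of all genes were higher and 0.0417% lower on replicate 1, 0.0668% and 0.134% on replicate 2, and 0.0835% and 0.025% on replicate 3. The widest spread was that of Lcp65Af, which was 0.82 higher on replicate 3 and 0.74 lower on replicate 1 than on the other mutant-labelled arrays. It was the only member over 2-fold apart between any 2 of these arrays. Replicate 3 was also high for Cpr49Ac (0.72 above the others) and Cpr51A (0.54 above), and low for Cpr78Cc (9.36, 0.73 below the others). Mutant-labelled replicate 1 gave the highest of the 6 values for 15 of the 81 genes (24.9% of all genes), replicate 2 for 1 (22.6%) and replicate 3 for 0 (14%). Wild type replicate 3 gave the highest value for 8 genes (8.93% of all genes), Lcp65Ag3 and Cpr67B among them, and wild type replicate 2 for 1 (15.8%), Cpr11B. Mutant-labelled replicate 3 gave the lowest value for 30 of the 81 genes, against 15.1% of all genes. Apart from wild type replicate 1, the other 5 arrays spanned over 2-fold for 6 of the 81 genes (2.83% of all genes): Lcp65Af, Cpr49Ac, Cpr50Cb, Cpr78Cc, Cpr31A and Cpr67Fa2. In array pairs that include wild type replicate 1, 34 to 40 of the 81 genes were over 2-fold higher on it and 0 lower. Over all 11982 genes these counts were 303 to 397 higher and 5 to 143 lower. In the other 10 pairs the count was at most 2 in either direction, and at most 103 over all genes. Set against the mean of their group, 26 and 24 genes were over 2-fold lower on wild type replicates 2 and 3 (1.36% and 1.37% of all genes), but that mean contains wild type replicate 1. None was over 2-fold higher on either, as were 0 and 0.0584% of all genes.

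Other genes of cuticle formation were compared on the same scale. Their lists were written from general knowledge but with earlier results of these data known, so their shares are no independent check. Of 24 Tweedle genes, which encode another family of cuticle proteins, 18 (75%) were over 2-fold higher on wild type replicate 1. The share was 41.2% of 17 genes of the apical matrix and zona pellucida proteins, 33.3% of 24 Osiris genes, 25% of 20 genes of tanning and pigment, 7.69% of 39 genes of chitin synthesis and binding and 7.41% of 27 genes of ecdysone response and moulting. It was 0 of 15 epidermal transcription factor genes. TwdlM gave 13.92 on wild type replicate 1 against 7.36 and 7.35 on the other wild type arrays, and Osi6, of the Osiris family, gave 12.48 against 4.82 and 4.58. Within the chitin list the chitinase gene Cht5 gave 8.45 against 6.57 and 6.43. Cht10, another chitinase gene, gave 8.09 against 5.89 and 5.73 and lay between them in mutant-labelled larvae (6.96, 7.59 and 7.30). ImpE2, an ecdysone-inducible gene, was at 7.99 against 4.99 and 5.01. The ecdysone list as a whole differed little (median 0.07), and its gene br was lower, at 9.36 against 9.89 and 9.98. In the epidermal factor list, with a median of -0.06, grh, which encodes Grainy head, was at 9.37 against 9.19 and 9.33. Hand, of the same list, was lower at 7.67 against 8.44 and 8.55.

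**Figure D5:**
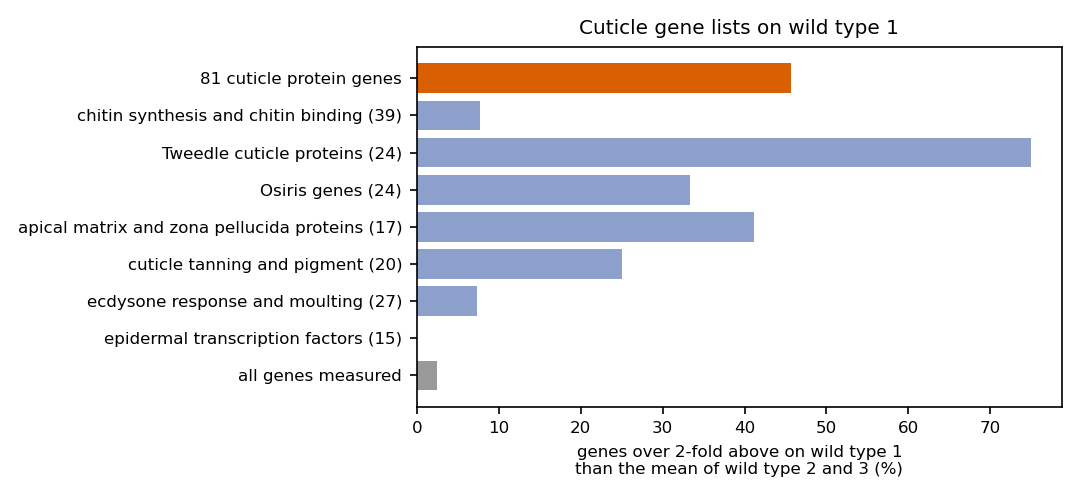
Percent of genes over 2-fold higher on wild type replicate 1 than the mean of wild type replicates 2 and 3, for the 81 cuticle protein genes, 7 lists of other genes of cuticle formation (number measured in brackets) and all genes. The share is 45.7% for the cuticle protein genes, 75% for Tweedle genes and 2.52% for all genes.

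Between the groups limma called 0 to 2 genes in each of these lists, where it called 4.09% of all genes (2.65% higher and 1.44% lower). In the chitin list 2 genes rose and 0 fell: the chitinase-like growth factor gene Idgf1 by 0.82 (SE 0.099, adjusted p = 6.75e-03) and Gfat2, of amino sugar synthesis, by 0.39 (adjusted p = 0.0479). Among the tanning genes Dhpr, of pteridine cofactor metabolism, rose by 0.69 (adjusted p = 5.55e-03) and yellow-h, of the yellow family, fell by 1.18 (adjusted p = 8.73e-03). TwdlN fell by 0.47 (adjusted p = 0.0393), the ecdysis triggering hormone gene ETH fell by 0.68 (adjusted p = 0.0196) and odd fell by 0.39 (adjusted p = 0.0454), each the only call of its list. Without wild type replicate 1, Gfat2, TwdlN and odd missed the threshold (adjusted p = 0.0949, 0.0691 and 0.0902). The fit without that array called 2.60% of all genes higher and 1.88% lower. Genes called only in that fit were Cht10, which rose by 1.48 (adjusted p = 3.87e-03), Gnpnat, of amino sugar synthesis, which rose by 0.43 (adjusted p = 0.0379), PPO1, a prophenoloxidase gene, which rose by 0.68 (adjusted p = 5.46e-03), and TwdlL, which fell by 0.86 (adjusted p = 0.0337). The omitted array was the highest of the 6 for Cht10, PPO1 and TwdlL but not for Gnpnat. The Osiris and apical matrix lists held 0 calls, and limma's smallest unadjusted p in them was 0.103 (Osi17) and 3.85e-03 (pio, adjusted p = 0.0872). The median difference was -0.98 for Tweedle genes and 0.08 without wild type replicate 1. For the other 6 lists it lay between -0.29 and -0.01 with all arrays and between -0.09 and 0.10 without that array.

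Marker sets of stages and tissues, other than the tracheal set, did not show the same excess on wild type replicate 1. None of the 6 salivary glue genes, the 3 genes of larval serum and fat body proteins of instar 3, the 14 adult yolk, eggshell and accessory gland genes, or the 10 embryonic patterning genes was over 2-fold higher there. The same was true of 8 muscle, 9 midgut, 9 fat body, 7 neuronal and 7 hemocyte genes. The median of the glue genes lay between 5.63 and 6.36 on the 6 arrays and that of the adult set between 5.23 and 5.39, while the muscle set lay between 12.06 and 12.31. Tracheal genes in part encode matrix proteins of the airway lining. Their median was 10.96 on wild type replicate 1 and 9.94 to 10.39 on the other 5 arrays. They lay 0.58 above wild type replicates 2 and 3 in the median, with serp and verm highest at 0.85 and 0.88. Gasp and dpy were at 0.58, pio at 0.30 and btl at -0.08. All the tracheal genes but btl are also in the chitin or apical matrix list. The 7 hemocyte genes lay lower by 0.44 in the median but were split. Of them eater, Sr-CI, He and crq were at -0.62 to -0.44, and Hml, Pxn and NimC1 at 0.12, 0.12 and -0.02. The part of age within the instar, of tissue makeup and of sample handling in the values of wild type replicate 1 was not tested. In RNA of whole larvae, fewer cells of a type and less RNA per cell cannot be told apart.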

How the data were processed

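The authors deposited 1 log2 value per probe set and array, computed by RMA according to the submitters' processing notes, with no version or setting named there. RMA usually includes quantile normalization, which removes a shift common to most genes, and it compresses folds of dim probe sets. Precision is limited by the number of arrays. The labels list the replicates as separate samples but name no separate cultures or crosses. The p-values set a group difference against the spread between these samples, which may not cover the spread between cultures.

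Of 18952 probe sets, 183 controls were left out. The remaining 18769 entered a single lmFit and eBayes fit without covariates (limma 3.58.1, R 4.3.3), with Benjamini-Hochberg adjustment over all of them and a call at an adjusted p under 0.05. Symbols came from the platform annotation, in which 13647 probe sets had 1 gene, 402 several and 4720 none. All 81 members matched the RefSeq table of Release 6 plus ISO1 MT, used for arms and gene order only. ± is the SD over 3 arrays, and intervals are 95%. The members and lists were chosen with earlier results of these data known.

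Genes named by rule were called members, the 20 with the smallest p, the 15 with the largest differences on wild type replicate 1 and the 5 with the smallest among those above the array median, the 10 brightest, and all Lcp, Acp65, Ccp84, Edg and Pcp genes, plus up to 4 genes per list with the smallest p. Other genes named were chosen after their values were seen. On simulated data of 18769 probe sets the fit recovered 54.8% of 1.5-fold and 85% of 2-fold changes, with a mean of 5.8 false calls over 5 runs. These rates are over probe sets in general. They do not describe the members, whose median SE in the reported fit was 0.19, against 0.10 over all genes. Alternatives in normalization, filter, probe set choice, variance model, threshold and arrays are given at the end. Protein and promoter sequences were not used here.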

Additional observations from a re-analysis of the deposited data

How the results depend on the processing

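With all arrays, 0 of the 81 genes were called in the reported fit. The count was also 0 after the filter to the upper 60% of probe sets, further quantile normalization, cyclic loess, the mean over probe sets, without _s, _x and _a probe sets, and with 1.5-fold added. It was 2 with trended, robust variances, 3 with array weights, 2 at an adjusted p under 0.10, 3 (2 higher, 1 lower) with the first wild type and the second mutant-labelled array both omitted, and 0 to 2 when single arrays were left out. The genes called with all arrays, by array weights, trended variances or the looser threshold, were all lower and came from Cpr67Fa2, Cpr49Af and Cpr31A. Deviations of same-numbered arrays correlated at 0.18, 0.13 and 0.03, so the numbers were not taken as pairs; with the replicate number as a block 3 genes were called lower, Cpr31A, Cpr49Af and Cpr100A. Cpr35B turned to 0.52 (adjusted p = 0.0155) without wild type replicate 1 and to 0.52 (0.0160) without mutant-labelled replicate 2 as well, and ran from -1.26 to 0.52 over single arrays left out. The median difference ran from -0.41 to 0.02 over single arrays left out. Counts over all genes were 490, 201 to 536 with an array left out, 840 with array weights, 520 with trended, robust variances, 476 with the block, 712 with both arrays omitted, 723 at an adjusted p under 0.10 and 306 with 1.5-fold added. The median on wild type replicate 1 above the other wild type arrays, 0.57, became 1.01 after the filter, 0.51 after quantile normalization, 0.45 without _s, _x and _a probe sets, and 0.51 to 0.60 with an array left out. The filter used the mean over all arrays, wild type replicate 1 included, so genes high on that array passed more easily. Cpr35B was kept with 8.57 there and 5.01 to 5.60 elsewhere. The rise to 1.01 over the 62 genes kept, and the count over 2-fold among them, therefore cannot be read as a stronger difference. The count over 2-fold, 37 of 81, was 34 to 37 with an array left out. It was 32 of the 62 genes kept by the filter, and 35 of 79 without _s, _x and _a probe sets. The other normalizations and the mean over probe sets gave 36 to 37. With the cut changed it was 40 for over 1.5-fold and 24 for over 4-fold. Causes were not tested, beyond the fewer genes or arrays each setting leaves. Of 1194 values of single genes, 1062 kept direction and side of the threshold, 12 became calls, 2 turned as called values, and 118 changed sign without a call.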

Other observations

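Probe sets that name several genes were kept out of the counts and show a further pattern in 2 close pairs. A probe set shared by Cpr67Fa1 and Cpr67Fa2 gave 11.25, 8.74 and 9.0 in wild type and 8.68, 8.32 and 8.02 in mutant-labelled larvae, 2.38 higher on wild type replicate 1 than on the other wild type arrays. The probe set of Cpr67Fa1 alone differed there by 1.69 and that of Cpr67Fa2 alone by 0.20, so the 3 probe sets of these copies disagreed. A probe set shared by Ccp84Aa and Ccp84Ab gave 11.34, 9.22 and 9.01, then 8.90, 7.82 and 8.08, with a group difference of -1.59 (SE 0.61, limma adjusted p = 0.307). The sets shared by Lcp65Ag1 and Lcp65Ag2 (13.27 to 13.54) and by Cpr65Ax1 and Cpr65Ax2 (12.81 to 13.41) were within 0.60 over all arrays, as was the dimmer probe set of Lcp65Aa (8.74 to 9.33). The probe sets shared by Obp57d and Cpr57A disagreed in signal, at 9.80 to 10.33 and at 4.82 to 5.09, and neither was 2-fold higher on wild type replicate 1.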
